A study of Mus musculus with 6 samples.

Results

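Zinc is moved across membranes by 2 families of transporters and is held inside cells by metallothioneins. ZnT proteins, encoded by Slc30a genes, carry zinc out of the cytosol into vesicles or out of the cell. ZIP proteins, encoded by Slc39a genes, carry zinc into the cytosol. Metallothioneins are small cysteine-rich proteins that bind zinc and copper, and their genes are induced by metals, glucocorticoids and oxidative stress. In the forebrain, a pool of zinc is packed with glutamate in synaptic vesicles, above all in hippocampal mossy fibers and in many cortical neurons.

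The expression of 10 genes of zinc handling was examined in mouse brain sections at 3 ages. The 10 were named beforehand by symbol, with their age patterns in these data already known, and all 10 were among the 19465 genes in the files, each listed once. They are the vesicular zinc transporter gene Tmem163, the exporter genes Slc30a1, Slc30a3 and Slc30a10, the importer genes Slc39a10, Slc39a12 and Slc39a14, and the metallothionein genes Mt1, Mt2 and Mt3. Since the genes were chosen with these results in view, their age differences are given below as a description, without p-values, beside the share of all tested genes that met the same criteria.

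Coronal formalin-fixed, paraffin-embedded (FFPE) brain sections were taken from male, untreated, wild-type C57BL/6J mice. There were 2 sections, each from a separate mouse, at postnatal day 21 (P21), at 12 to 15 weeks (adult) and at 28 months (aged). Visium spatial transcriptomics hybridizes pairs of probes to RNA and counts unique molecular identifiers (UMIs) in barcoded spots, each of which covers several cells. Sections of the younger ages lay directly on first-generation Visium slides, whereas aged sections were transferred to second-generation slides with a CytAssist instrument, so slide generation cannot be told apart from age in aged vs. adult. The 20336 spots kept had a median of 12074.5 to 25535 UMIs per section. No barcode was shared between an aged and a younger section, and within each slide generation most barcodes recurred, as fixed by the slide design. The outline of the sections differs between ages in the maps of spots, and the plane of cutting was not compared.

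Spots were grouped by clustering without the zinc and metal genes, and clusters were named from marker panels. The main regions were fiber tracts (FT), striatum (STR), cortex (CTX), hypothalamus (HY), hippocampus (HP) and thalamus (TH), and smaller ones were the ventricular system, the reticular nucleus of the thalamus and the meninges. HP spots were divided into CA1-2, CA3, dentate gyrus (DG) and matrix, the spots between the cell layers. CTX spots were divided into upper layers, layer 4, deep layers and unnamed rest. A cluster of 2051 spots led by Lypd1 and Cyp26b1 stayed unnamed because its CTX panel score of 0.181 was below the limit of 0.2. Levels are CPM, the UMIs of a gene scaled to a total of 1e6 UMIs of a region in a section, and pairs of values give the sections in the order 1 and 2. Probe efficiencies differ between genes, so levels are compared between regions and ages and not between genes. The study describes an enhanced probe design for the aged libraries. The efficiency for a gene may thus differ in aged vs. adult, and this cannot be told apart from age. A spot holds a mixture of cells, and fewer cells of a type cannot be told apart from less RNA per cell. The make-up of the FT spots also differed between ages, as given with Mt1 below. The mix of subregions in the HP differed as well. Matrix spots held 5624618 of 9941308 and 2399018 of 4205246 HP UMIs at P21. In adult sections they held 2601378 of 6179119 and 2913473 of 7028110. In aged sections they held 2326269 of 7988845 and 2130749 of 10489334, and DG spots held 1164270 and 3197465. The part of these differences in the FT and HP values was not tested for any gene.

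The genes lie on 5 chromosomes of GRCm38 (mm10), by GENCODE vM21. Mt3 (ENSMUSG00000031760, chr8:94152607-94154146), Mt2 (ENSMUSG00000031762, chr8:94172664-94173568) and Mt1 (ENSMUSG00000031765, chr8:94179082-94180327) stand in a row on the + strand. Mt2 and Mt1 are separated by 5513 bases, and Mt3 and Mt2 by 18517 bases. Slc39a10 (ENSMUSG00000025986, chr1:46807544-46892852, − strand), Tmem163 (ENSMUSG00000026347, chr1:127486546-127679548, − strand), Slc30a10 (ENSMUSG00000026614, chr1:185454848-185468762, + strand) and Slc30a1 (ENSMUSG00000037434, chr1:191906767-191913247, + strand) are far apart on chromosome 1. Slc39a12 (ENSMUSG00000036949) is at chr2:14388316-14494977 on the + strand, Slc30a3 (ENSMUSG00000029151) at chr5:31086106-31108237 on the − strand and Slc39a14 (ENSMUSG00000022094) at chr14:70303469-70351425 on the − strand.

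Promoters of the 3 metallothionein genes are shown because Mt1 and Mt2 moved together with age and Mt3 did not. Metal-responsive transcription factor 1 (MTF-1) binds metal response elements, whose core is TGCRCNC. The windows below run from 250 bases before to 50 bases after the RefSeq transcription start on GRCm38.p6, 5′ to 3′ on the + strand. Capitals mark TGCACNC or TGCGCNC on either strand. RefSeq starts differ from the GENCODE starts above for some genes. The Mt2 window ends at 94172667, and GENCODE starts Mt2 at 94172664.
Mt1 promoter (chr8:94178839-94179138): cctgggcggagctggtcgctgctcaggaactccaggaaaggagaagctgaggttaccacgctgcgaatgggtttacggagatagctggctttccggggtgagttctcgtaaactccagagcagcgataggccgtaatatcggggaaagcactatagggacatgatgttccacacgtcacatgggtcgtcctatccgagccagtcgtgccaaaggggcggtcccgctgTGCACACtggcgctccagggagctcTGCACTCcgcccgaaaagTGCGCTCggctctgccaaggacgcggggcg
Mt2 promoter (chr8:94172368-94172667): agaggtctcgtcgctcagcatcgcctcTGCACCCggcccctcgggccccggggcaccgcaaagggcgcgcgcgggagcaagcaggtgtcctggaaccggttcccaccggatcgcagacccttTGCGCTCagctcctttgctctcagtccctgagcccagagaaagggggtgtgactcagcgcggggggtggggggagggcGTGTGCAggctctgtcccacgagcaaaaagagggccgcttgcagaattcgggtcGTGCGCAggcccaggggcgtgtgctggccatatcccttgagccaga
Mt3 promoter (chr8:94152357-94152656): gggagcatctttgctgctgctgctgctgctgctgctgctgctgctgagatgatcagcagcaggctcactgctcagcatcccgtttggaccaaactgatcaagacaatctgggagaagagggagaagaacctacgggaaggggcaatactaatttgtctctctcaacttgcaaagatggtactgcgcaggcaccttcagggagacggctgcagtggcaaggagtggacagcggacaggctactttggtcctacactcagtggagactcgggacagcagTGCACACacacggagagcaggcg
The Mt2 window held 4 matches, 2 on each strand, the Mt1 window held 3, all on the + strand, and the Mt3 window held 1. Windows were found for 9 members, and 6 of them held at least 1 match, including Slc30a10 with 3, Slc30a1 with 2 and Slc30a3 with 1 in the first of its 2 windows. The windows of Tmem163, Slc39a10 and Slc39a12 held none. Neither of the 2 Slc39a10 windows (chr1:46925727-46926026 and chr1:46853569-46853868) covers the GENCODE start of that gene at 46892852. Counts of matches hold for these windows only. Of 32851 windows in the table, 25.7% held at least 1 match, 1.97% at least 3 and 0.517% at least 4. A match in these letters is not evidence of binding, and matches in the Slc30a10 window on opposite strands overlap.

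**Figure D1:**
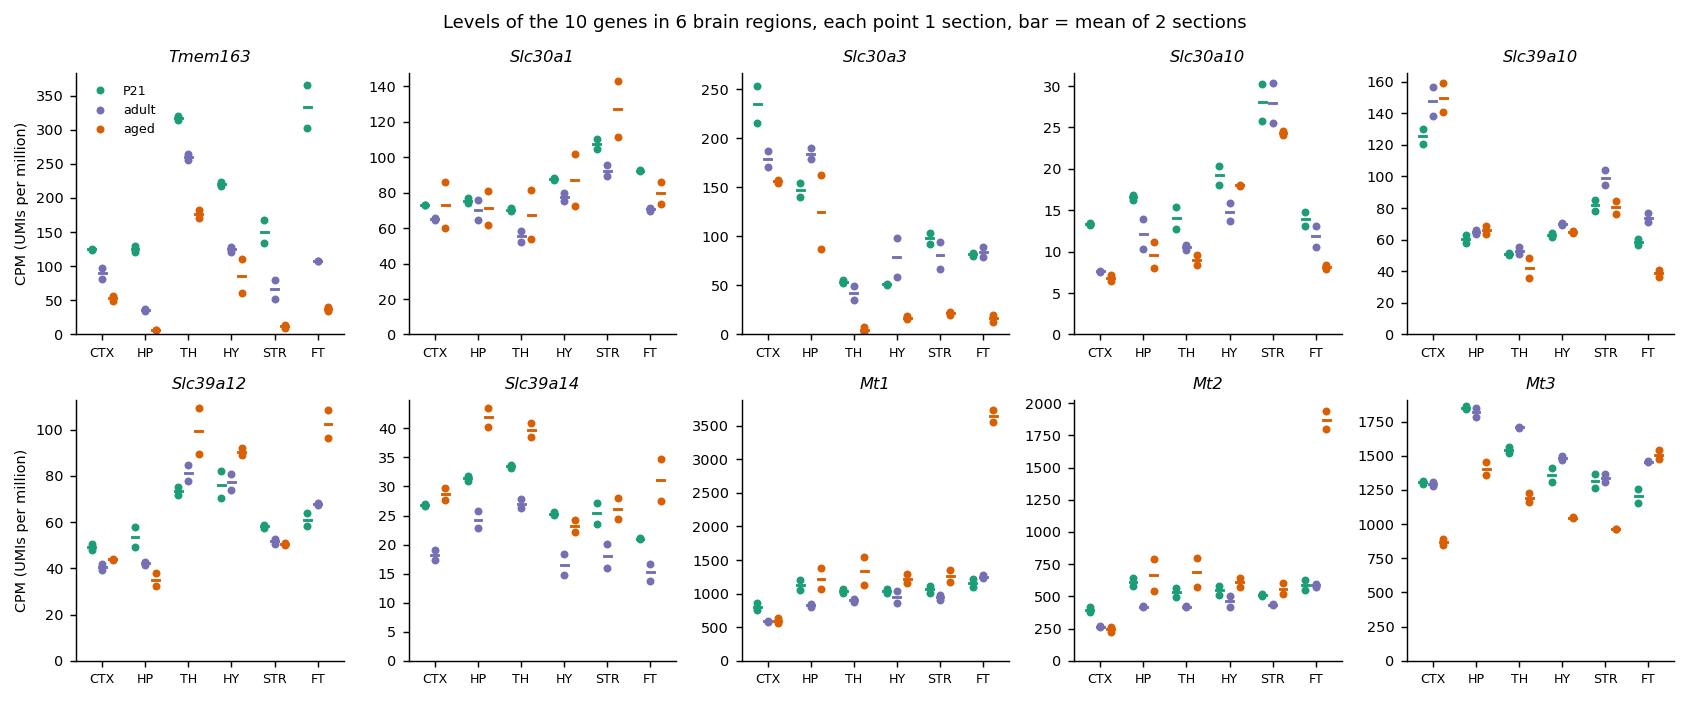
Levels of the 10 genes (CPM, y axes from 0, scaled per gene) in 6 brain regions (x axis) at P21, adult and aged, with 1 point per section and a bar at the mean of 2 sections. In the FT, both aged sections stand at 3732 and 3558 CPM for Mt1, whereas Tmem163 is lowest in the aged sections of every region.

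Fold changes were obtained from edgeR fits over all genes within each region. The SE given with them is the absolute log2 fold change divided by the square root of its quasi-likelihood F. It rests on spread shared across genes and is not the spread of the sections of an age. An SE given for DESeq2 is the one that DESeq2 reported, so the errors of these tools are not comparable. A gene was called where its adjusted p was under 0.05 and its fold change over 1.5. All 10 genes passed the filter on low values in all 6 regions and all 4 hippocampal subregions. Detection at either of the ages compared was enough, so a gene rare in aged spots could pass on its adult detection. In P21 vs. adult, 7 of 60 gene-region pairs were called, all higher at P21, whereas 6.1% of all 66409 pairs tested were called, 3.85% higher and 2.25% lower. In the hippocampal subregions 9 of 40 pairs were called, 8 higher and 1 lower, beside 4.33% of all pairs, 2.95% higher and 1.38% lower. In aged vs. adult, 21 of 60 pairs were called, 11 higher and 10 lower, beside 14.8% of all pairs, 7.66% higher and 7.18% lower. In the subregions 16 of 40 were called, 11 higher and 5 lower, beside 9.49%, 5.26% higher and 4.23% lower. Nothing is read from these shares, because the genes were chosen for their changes. The median log2 fold change over the members' 60 pairs was 0.25 for the younger and 0.01 for the older comparison, whereas that of all genes was −0.01 in each. In aged vs. adult, the median absolute log2 fold change of all genes was 0.34 in the FT and 0.22 to 0.26 in the other regions.

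A second fit over all genes held each section as a block and asked whether an age difference varied between regions. The 10 genes were chosen on these same values, so their interactions are counted as a description and nothing is read from the counts. In aged vs. adult, 9 of the 10 had a region-by-age interaction at an adjusted p under 0.05 in edgeR, as did 48.2% of 11338 genes. That of Slc30a10 was lost whichever of the 4 sections compared was left out, and that of Slc39a14 without adult section 2 or aged section 2, and with plain CPM, filterByExpr alone, only the ages compared, core spots or thinned depth. In P21 vs. adult, 5 members had one, Tmem163, Slc30a3, Slc39a12, Mt1 and Mt2, as did 13.2% of genes, and Tmem163 was the 1 member that kept it whichever section was left out. The block takes up what acts alike on a gene in a whole section, but not a difference between slide generations in how sharply transcripts stay in place.

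**Figure D2:**
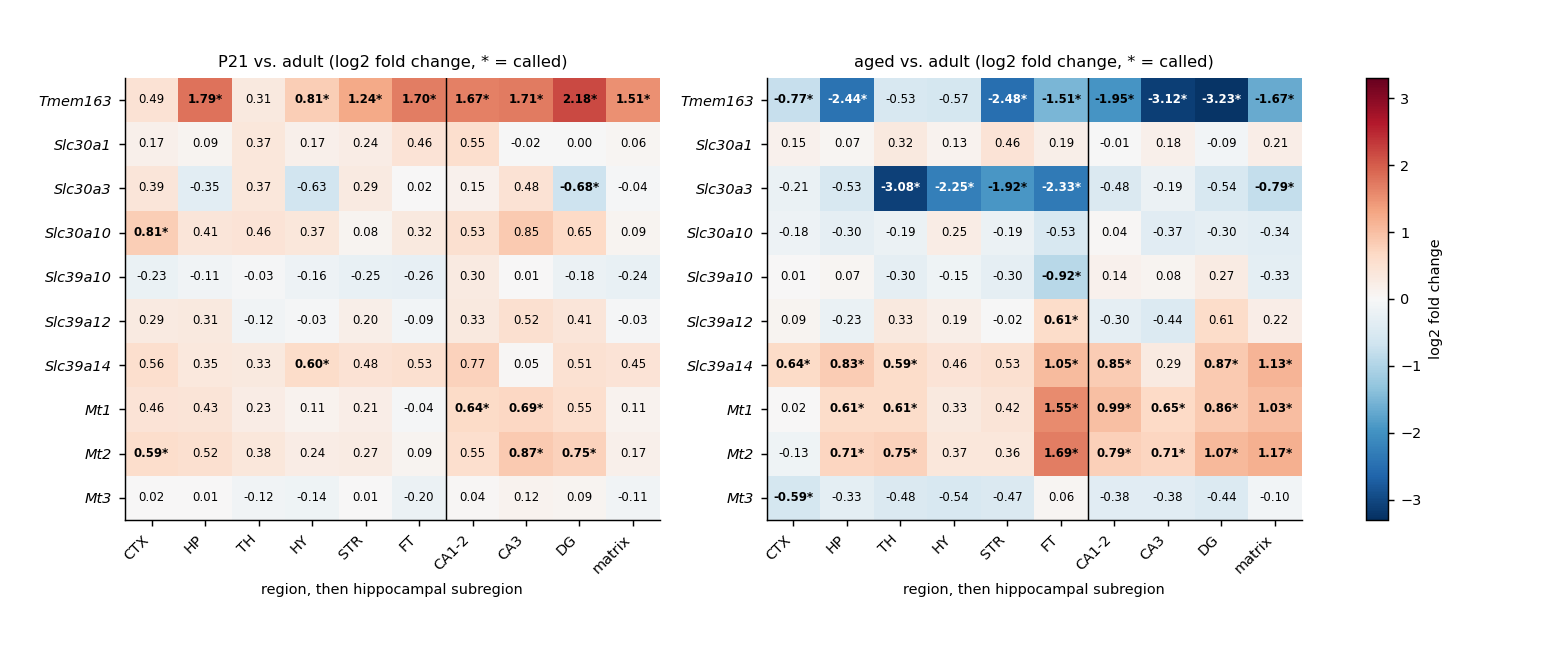
Log2 fold change of each gene (rows) in 6 regions and then 4 hippocampal subregions (columns) for P21 vs. adult (left) and aged vs. adult (right), with colour and number giving the value and an asterisk marking a call. Red is higher and blue is lower than adult. Tmem163 is red throughout on the left and blue throughout on the right.

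Tmem163 encodes a zinc-binding membrane protein of synaptic vesicles and lysosomes that exports zinc from the cytosol, and variants of the human gene are linked to hypomyelination. Its level stepped down from P21 to adult to aged in all 6 regions and all 4 hippocampal subregions. In the HP, Tmem163 stood at 121 and 129.8 CPM at P21, 37.2 and 33.9 in adult and 6.76 and 6.01 in aged sections. In the FT the values were 303 and 365, then 108 and 108, then 34.4 and 40.3 CPM. In the TH they were 315 and 319.8, then 255 and 264, then 170.1 and 182 CPM. Groups did not overlap in any of these regions, and the steps were smallest in the TH, where log2 fold changes were 0.31 ± 0.08 (SE) for P21 and −0.53 ± 0.08 for aged against adult sections and neither was called.

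Tmem163 rose in P21 vs. adult in 4 of 6 regions, with log2 fold changes of 1.79 ± 0.11 (SE, HP), 1.70 ± 0.10 (FT), 1.24 ± 0.16 (STR) and 0.81 ± 0.20 (HY). The HY call was lost whenever any P21 or adult section was left out, with values of 0.78 to 0.84. It was also lost with DESeq2, plain CPM, core spots or a replicate block, at 0.76 to 0.82. Against adult sections, aged Tmem163 fell by 2.48 ± 0.21 (STR), 2.44 ± 0.14 (HP), 1.51 ± 0.12 (FT) and 0.77 ± 0.10 (CTX) on the log2 scale. In the HY the aged sections stood apart from each other, at 60.4 and 109.9 CPM, against 128 and 121 in adult sections, and the difference of −0.57 ± 0.21 was not called. Without aged section 2 the HY was called lower as well.

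All 4 hippocampal subregions were called for Tmem163 in both comparisons. In the DG, the granule cell layer that gives rise to the mossy fibers, Tmem163 stood at 88.0 and 74.1 CPM at P21, 20.4 and 15.3 in adult and 1.72 and 1.88 in aged sections. The aged DG values rest on 2 and 6 UMIs, and their exact 95% Poisson intervals, which cover counting error only, run from 0.208 to 6.21 and from 0.689 to 4.08 CPM. Log2 fold changes in aged vs. adult were −3.23 ± 0.42 (SE) in the DG, −3.12 ± 0.37 in CA3, −1.95 ± 0.43 in CA1-2 and −1.67 ± 0.19 in the matrix. The aged CA3 values rest on 11 and 6 UMIs, and the aged CA1-2 values on 6 and 7 UMIs. The CA1-2 call was lost without adult section 2, at −1.79, and with DESeq2, at −1.96 ± 0.60 (SE). P21 values against adult ran from 1.51 ± 0.12 in the matrix to 2.18 ± 0.23 in the DG, and the CA1-2 and CA3 calls were lost without P21 section 1, at 1.46 and 1.52. The P21 call in CA1-2 was also lost with DESeq2, at 1.65, and with thinned depth, at 1.22. The study itself named Tmem163 as higher at P21 and lower in aged mice in the DG, CA3 and matrix. For CA1-2 it named other genes with that course and listed Tmem163 as higher at P21. The values here come from the same sections, so they are not independent evidence.

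Within the CTX, Tmem163 was highest in deep layers at every age. Deep layers held 174 and 169 CPM at P21, 144 and 145 in adult and 101 and 86.3 in aged sections. Upper layers held 59.1 and 67.4, then 20 and 16.9, then 2.21 and 2.19 CPM. The aged upper-layer values rest on 11 and 14 UMIs. At P21 against adult, Tmem163 was called higher in upper layers (1.75 ± 0.19, SE, log2) and layer 4 (1.41 ± 0.18). It was not called in deep layers (0.27 ± 0.10). Against adult sections, the aged log2 fold change was −0.64 ± 0.10 (SE) in deep layers and −3.05 ± 0.30 in upper layers, and layer 4 lay between at −1.13 ± 0.20. All 3 were called, beside 11.9% of all gene-layer pairs. The difference between layers was not tested. Mature oligodendrocyte markers moved with it, with 7 of 8 called lower in aged upper layers, 6 in layer 4 and 1 in deep layers. Their summed level in upper layers was 2862 and 2297 CPM in adult and 1099 and 1155 in aged sections, and their part in the Tmem163 values was not tested.

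Mature oligodendrocyte markers, 8 genes including Mbp and Mag, moved with Tmem163 in part. Their summed level in the FT was 77536 and 91509 CPM at P21, 42014 and 40579 in adult and 48138 and 47352 in aged sections. At P21, 7 of the 8 were called higher in the HP, STR, FT, CTX and TH, and Tmem163 was not called in the CTX and TH. Among aged sections the FT had 1 of 8 higher and none lower while Tmem163 fell there. The STR, where Tmem163 fell as well, had 0 of 8 called either way and a median log2 fold change of 0.00. All 8 were lower in the HP, 6 in the CTX, 5 in the TH and 2 in the HY. The part of oligodendrocyte content in the Tmem163 values was not tested. Over 36 sums of 6 regions and 6 sections, the genes outside the zinc lists most like Tmem163 were Cadm4, Ppfibp1 and Mmp15, with Pearson r of log2(CPM + 1) of 0.91, 0.89 and 0.88, as a description over sums that share sections.

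**Figure D3:**
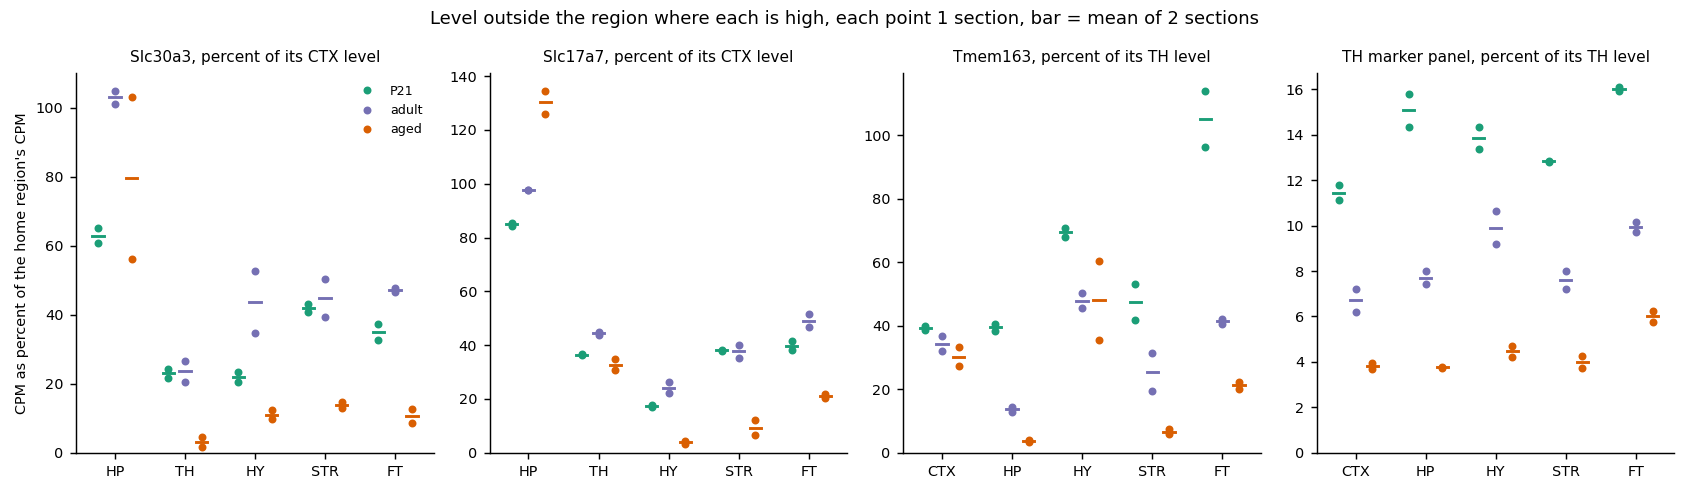
CPM outside a home region as percent of the CPM in that region, for Slc30a3 and Slc17a7 (home CTX) and for Tmem163 and the TH marker panel (home TH), with 1 point per section and a bar at the mean of 2 sections. Aged sections lie lowest for the TH panel in every region, at 3.68% to 6.23% of its TH level.

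Marker transcripts of the TH were counted elsewhere at smaller shares in aged sections. The TH marker panel, 8 genes including Prkcd and Tnnt1, was counted in the HP at 15.8% and 14.3% of its TH level at P21, at 7.43% to 8% in adult and at 3.78% and 3.74% in aged sections. Tmem163 in the HP stood at 38.4% and 40.6%, then 14.6% and 12.8%, then 3.97% and 3.31% of its TH level. The aged Tmem163 share was thus close to that of the panel, and the P21 and adult shares were above it. The STR and FT marker panels also had smaller shares in aged than in adult sections in every other region. The CTX panel did so in the HP, HY, STR and FT. In the TH it stood at 29.4% and 30.5% of its CTX level in adult and 29.4% and 25.7% in aged sections. Pmch and Hcrt stood in the FT at 6.95% and 5.59% of their HY level in adult and at 1.33% and 45.8% in aged sections. How far lateral spread entered the adult and P21 levels of low regions was not tested.

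Slc30a3 encodes ZnT3, the transporter that loads zinc into glutamatergic synaptic vesicles. The unnamed cluster was its highest zone in 4 of 6 sections, with 416 and 419.7 CPM at P21, 518 and 438 in adult and 341 and 320.0 in aged sections, although Slc30a3 was not used for clustering. Layer 4 and upper layers of the CTX and the DG came next. Upper layers held 297 and 323, then 270.2 and 276, then 267 and 239 CPM, and deep layers held 135 and 135, then 111 and 107, then 65.6 and 78.7 CPM. Upper layers were above deep layers in 6 of 6 sections. Slc30a3 was among the most spatially structured members, with a deposited Moran's I of 0.396 to 0.729 and a rank of 43 to 180 among all genes of a section.

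The DG had its highest Slc30a3 level in adult sections. It held 258 and 251 CPM at P21, 409 and 394 in adult and 228 and 320.3 in aged sections. P21 values were lower than adult values by a log2 fold change of −0.68 ± 0.13 (SE), a call that was lost without P21 section 1 or 2, at −0.71 and −0.68, with larger errors. The aged sections stood apart from each other, and their difference of −0.54 ± 0.13 was not called. In CA3, whose spots lie on the pyramidal layer, levels were 118 and 115, then 76.8 and 89.4, then 58.4 and 89.0 CPM, and no difference was called. The matrix was called lower in aged vs. adult (−0.79 ± 0.14), a call lost with core spots alone, at −0.50. Without aged section 2, the HP, CA1-2 and DG were called lower too.

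Slc30a3 fell in aged vs. adult in all 4 main regions outside the CTX and HP. In the TH it stood at 52.1 and 55.3 CPM at P21, 49.9 and 35.1 in adult and 7.12 and 2.57 in aged sections. The aged TH values rest on 92 and 32 UMIs, in 9.12% and 7.49% of spots. In adult sections 59.2% and 46.1% of TH spots held Slc30a3, and it passed the filter there through them. Log2 fold changes were −3.08 ± 0.30 (SE) in the TH, −2.33 ± 0.14 in the FT, −2.25 ± 0.22 in the HY and −1.92 ± 0.16 in the STR, against −0.21 ± 0.09 in the CTX, which was not called as a whole although its deep layers were (−0.60 ± 0.10). P21 and adult values overlapped in the STR and FT, and P21 values were above adult values in the TH and below them in the HY. In the meninges, where no fit was run, aged values were higher. Slc30a3 stood there at 175 and 150 CPM in adult and 251 and 205 in aged sections. The unnamed cluster changed by −0.50 ± 0.09 in aged vs. adult and was not called.

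Another gene of cortical glutamatergic neurons showed a like drop in some of these regions. Slc17a7, the vesicular glutamate transporter VGLUT1, was counted in the STR at 38.2% and 37.9% of its CTX level at P21, 40.1% and 35.4% in adult and 6.64% and 12.1% in aged sections. Slc30a3 in the STR stood at 43.0% and 40.9%, then 50.3% and 39.4%, then 12.9% and 14.6%. In the TH, Slc17a7 stood at 34.7% and 30.7% in aged sections, where Slc30a3 stood at 4.60% and 1.63%. In the HY, Slc17a7 stood at 4.41% and 3.34% in aged sections. Whether Slc17a7 transcripts in the TH came from cells of the TH itself was not tested, so the TH values of these genes may not be alike in source. Slide generation and lateral spread cannot be told apart from age for these differences. Over the 36 sums, Fhl2 and Rtn4rl2 were among the genes most like Slc30a3, with r of 0.97 and 0.96.

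**Figure D4:**
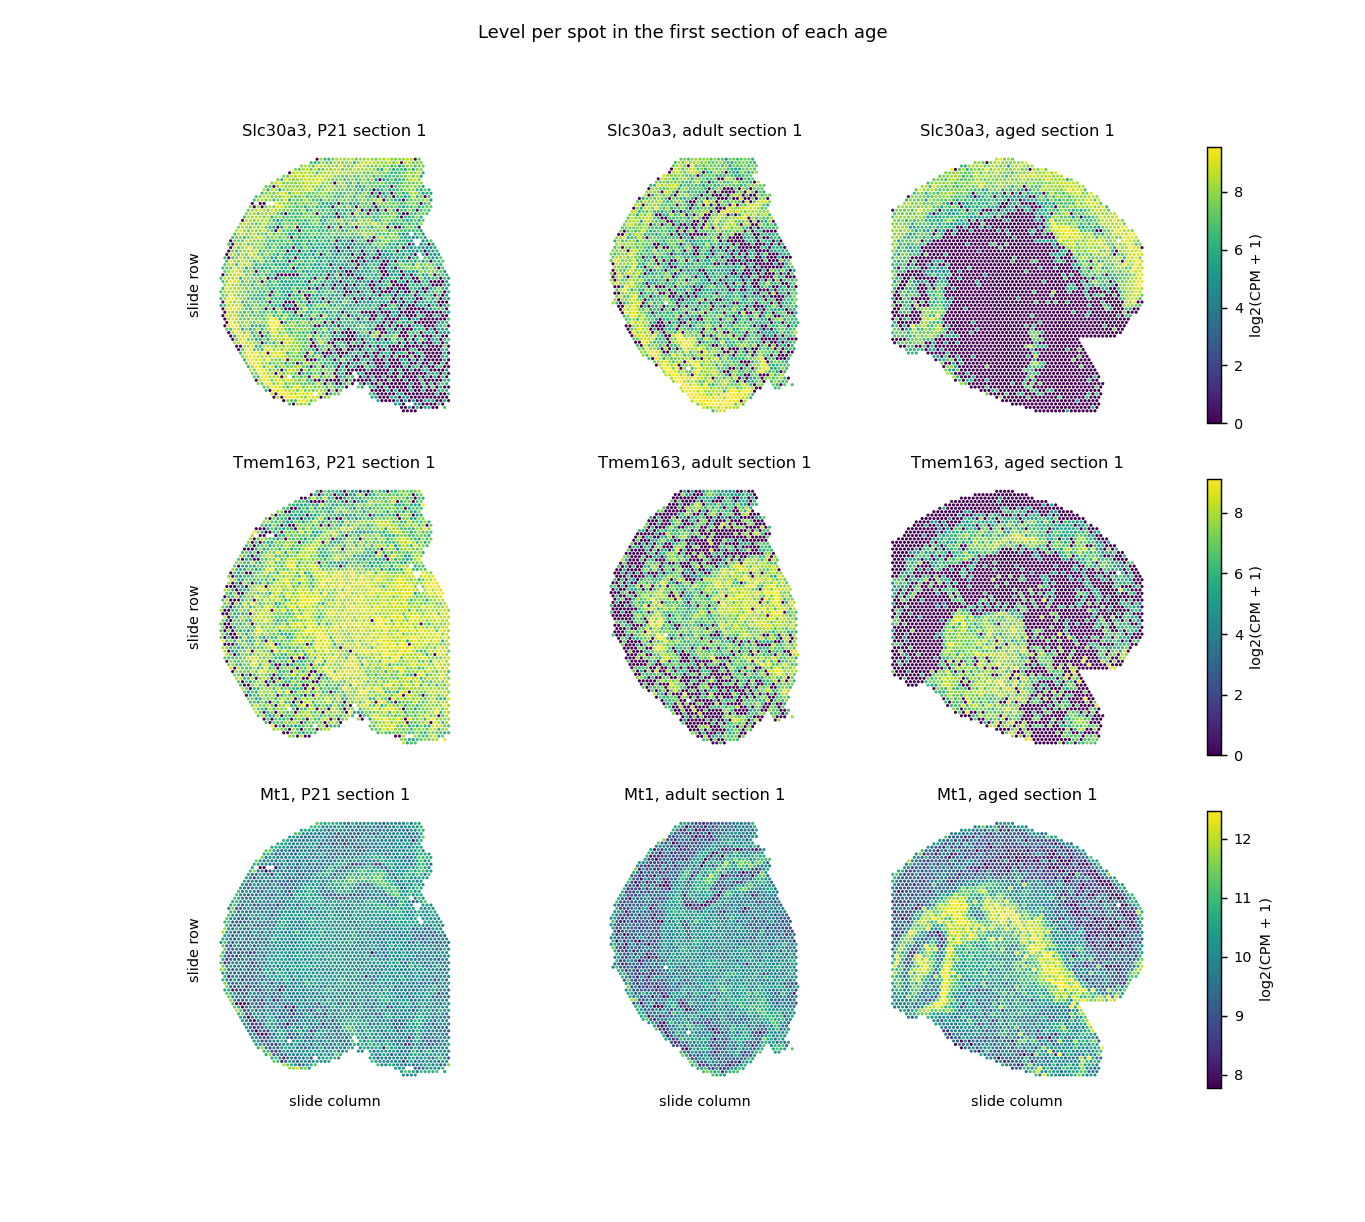
Level per spot, as log2(CPM + 1) on a colour scale shared within each row, of Slc30a3, Tmem163 and Mt1 in the first section of each age, with spots at their slide row and column. In the aged section, Slc30a3 is at 0 in most spots away from the CTX and HP, Tmem163 is high in the TH and a band of deep CTX, and Mt1 is highest along the fiber tracts and hippocampal matrix. Sections differ in outline and were not turned to 1 orientation.

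Slc30a1 encodes ZnT1, the zinc exporter of the plasma membrane. Its levels were even, with a ratio of highest to lowest zone of 1.77 at P21, 1.85 in adult and 2.71 in aged sections. STR was the highest zone in 5 of 6 sections, with 105 and 111 CPM at P21, 95.5 and 89.4 in adult and 143 and 112 in aged sections. No region or subregion was called in either comparison. Aged section 1 was above aged section 2 in all 6 regions, for example at 81.2 and 53.6 CPM in the TH, against 58.6 and 52.3 in adult sections. Without aged section 2, the STR and TH were called higher. Birc2 and Jmjd6 were among the genes most like it, with r of 0.81 and 0.80.

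Slc30a10, a transporter mainly known for manganese export, had low counts. The STR was its highest zone in 4 of 6 sections, with 30.3 and 25.8 CPM at P21, 25.6 and 30.3 in adult and 24.1 and 24.5 in aged sections. P21 and adult values overlapped there, and both aged values were below them. In the CTX it stood at 13.3 and 13.4, then 7.59 and 7.62, then 6.42 and 7.14 CPM. The CTX was the region called in P21 vs. adult, with a log2 fold change of 0.81 ± 0.15 (SE), and no region was called in aged vs. adult. Plppr1, Klhl13 and Fndc3b were most like it, with r of 0.94, 0.85 and 0.85.

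Among the importers, Slc39a10 (ZIP10) was a cortical gene. Upper layers of the CTX held 154 and 136 CPM at P21, 188 and 207 in adult and 181 and 204 in aged sections, and the TH held 51.7 and 50.5, then 55.4 and 50.9, then 35.4 and 48.6 CPM. In the FT it fell in aged vs. adult, from 71.1 and 76.9 to 36.4 and 40.9 CPM, with a log2 fold change of −0.92 ± 0.11 (SE). Neuronal markers moved there as well. The summed level of 6 pan-neuronal genes in the FT was 4820 and 4535 CPM in adult and 2237 and 2308 in aged sections, and 4 of the 6 were called lower. In the CTX, Slc39a10 changed by 0.01 ± 0.09. Its most alike genes were Pknox2, Lrrc4c and Sun1, with r of 0.93, 0.92 and 0.90.

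Slc39a12 (ZIP12), an importer expressed in brain and in astrocytes, was lowest in the hippocampal cell layers and higher in the FT, TH and HY. The meninges were its highest zone in 3 of 6 sections. By mean level the ventricular system was highest in adult sections, at 149 and 97.1 CPM, and in aged sections, at 197 and 108 CPM. In the FT it stood at 58.3 and 63.9 CPM at P21, 67.4 and 68.2 in adult and 108 and 96.4 in aged sections. Aged values were above both younger groups there, by a log2 fold change of 0.61 ± 0.10 (SE) against adult. That call was lost without adult section 1 or 2 or without aged section 1, with values of 0.50 to 0.58. Astrocyte markers in the FT moved in the same direction, with 4 of 8 called higher and a summed level of 3609 and 3500 CPM in adult and 4582 and 4469 in aged sections. Their part in the result was not tested. In CA3 and CA1-2, Slc39a12 stood at 15.4 to 22.3 CPM in aged sections. Sdsl and Fam189a2 were among the genes most like it, with r of 0.92 each.

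Slc39a14 (ZIP14) imports zinc, iron and manganese and is induced in inflammation. It was lowest in adult sections in all 6 regions. In the HP it stood at 30.9 and 31.9 CPM at P21, 25.7 and 22.8 in adult and 40.3 and 43.5 in aged sections. In the FT the values were 20.9 and 21.1, then 16.7 and 13.7, then 27.5 and 34.8 CPM. In both regions aged sections were highest and the 3 groups did not overlap.

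Slc39a14 rose in aged vs. adult in the FT (1.05 ± 0.16, SE, log2), HP (0.83 ± 0.12), CTX (0.64 ± 0.11) and TH (0.59 ± 0.10). The CTX call was lost without adult section 2, at 0.57, and the TH call without adult section 2 or aged section 1, at 0.56 and 0.51. The TH call was also lost with DESeq2, plain CPM or only the ages compared, at 0.56 to 0.58. The CTX call was also lost with the unnamed cluster joined to the CTX, at 0.53. In the subregions it rose in the matrix (1.13 ± 0.19), DG (0.87 ± 0.21) and CA1-2 (0.85 ± 0.25). The DG and CA1-2 calls were lost without either adult section, and that of CA1-2 also without aged section 2, with values of 0.74 to 0.94. Both were lost with DESeq2 and with thinned depth as well, with values of 0.66 to 0.89. The HY was called higher at P21, at 0.60 ± 0.15, and the call was lost whichever of the 4 sections compared was left out, with values of 0.44 to 0.78. That HY call was also lost with DESeq2, core spots, a replicate block or thinned depth, at 0.60 to 0.64. The study lists Slc39a14 among genes chosen on these sections. Ubtd1, Ppp2ca and Cpe were most like it, with r of 0.80, 0.79 and 0.79.

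Mt1 and Mt2 are the widely expressed, inducible metallothioneins, found in brain mainly in astrocytes and other non-neuronal cells. They moved together, with a Pearson r of 0.99 over the 36 sums and of 0.40 to 0.74 across the spots of single sections. Over all zones, the meninges were highest for both genes in 4 of 6 sections. Mt1 stood there at 1714 and 1679 CPM at P21, 1585 and 1522 in adult and 1985 and 1951 in aged sections. In the FT, Mt1 stood at 1214 and 1099 CPM at P21, 1279 and 1228 in adult and 3732 and 3558 in aged sections. Mt2 stood there at 628 and 553, then 576 and 593, then 1943 and 1801 CPM. Aged sections were far above both younger groups, which overlapped for Mt2. At a clustering resolution of 0.5 the FT split in 2, and a part led by C4b, with Gfap among its leading genes, held 322 and 307 aged spots, whereas the other part held 91 and 62. The adult sections had 128 and 191 spots in the former and 193 and 196 in the latter, and P21 sections 142 and 122 against 147 and 188. Levels were not compared within these parts. In the CTX, Mt1 stood at 854 and 749, then 599 and 571, then 639.6 and 557 CPM, and adult and aged values overlapped.

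In aged vs. adult, Mt1 rose by a log2 fold change of 1.55 ± 0.09 (SE) in the FT, 0.61 ± 0.12 in the HP and 0.61 ± 0.13 in the TH. Mt2 rose by 1.69 ± 0.09 in the FT, 0.75 ± 0.14 in the TH and 0.71 ± 0.15 in the HP. The values in the CTX were 0.02 ± 0.09 for Mt1 and −0.13 ± 0.09 for Mt2. Aged section 1 was above aged section 2 in the TH, at 1541 and 1126 CPM for Mt1. Without aged section 1, the HP and TH calls of both genes were lost, at 0.39 and 0.33 for Mt1 and 0.37 and 0.45 for Mt2. The Mt1 calls in the HP and TH were also lost without adult section 2 (0.58 in each), and that of Mt2 in the HP without adult section 1 or 2 (0.69 and 0.73). With plain CPM both Mt1 calls were lost, at 0.57 in each, and with core spots that in the TH, at 0.50. The FT calls were kept without each section.

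In the hippocampus, the matrix held most Mt1 and Mt2. Mt1 stood there at 1542 and 1434 CPM at P21, 1383 and 1351 in adult and 2754 and 2679 in aged sections, and aged values were apart from both younger groups. All 4 subregions were called higher in aged vs. adult for both genes, from 0.65 ± 0.12 (SE) in CA3 to 1.03 ± 0.11 in the matrix for Mt1 and from 0.71 ± 0.12 in CA3 to 1.17 ± 0.12 in the matrix for Mt2. The Mt1 call in CA3 was lost without aged section 1, at 0.46. With DESeq2 the Mt2 call in the DG was lost, at 1.1 ± 0.39. Mt1 in the hippocampus is also among genes that the study listed from these sections.

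P21 sections stood above adult sections for Mt1 and Mt2 in the cell layers and the CTX. Mt2 in CA3 was at 406 and 314 CPM at P21 and at 213 and 192 in adult sections, and P21 values were above adult values. Calls were made for Mt1 in CA3 (0.69 ± 0.13, SE, log2) and CA1-2 (0.64 ± 0.14) and for Mt2 in CA3 (0.87 ± 0.13), DG (0.75 ± 0.20) and CTX (0.59 ± 0.09). In the FT the values were −0.04 ± 0.09 and 0.09 ± 0.09. Without P21 section 1, the deeper of the P21 sections, all 5 calls were lost, with 0.43 and 0.30 for Mt1 in CA3 and CA1-2 and 0.67, 0.59 and 0.51 for Mt2 in CA3, DG and CTX. Those of Mt1 in CA3 and CA1-2 were also lost without adult section 2 (0.64 and 0.52), that of Mt2 in the DG without adult section 2 or P21 section 2 (0.60 and 0.86), and that of Mt2 in the CTX without adult section 1 (0.56). With DESeq2 those of Mt1 in CA1-2 and Mt2 in the DG were lost, at 0.61 and 0.74. Thinned depth lost that of Mt1 in CA1-2 (0.53), and joining the unnamed cluster that of Mt2 in the CTX (0.54).

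Glial markers moved with Mt1 and Mt2 in aged sections. The summed level of 6 reactive astrocyte genes, among them Gfap and Vim, was 828 and 915 CPM in the adult FT and 5909 and 6195 CPM in the aged FT, and 601 and 749.6 against 2035 and 2745 CPM in the matrix. All 6 were called higher in both. In the CTX the same list stood at 101 and 92.9 in adult and 234 and 205 CPM in aged sections, with 4 of 6 called higher, while neither Mt1 nor Mt2 was called. Microglial markers in the FT were at 602 and 703 CPM in adult and 1844 and 1922 CPM in aged sections, with 5 of 6 called higher. The part of these cells in the Mt1 and Mt2 values was not tested. Cyba and Vim were the genes most like both, with r of 0.94 and 0.93 for Mt1 and 0.90 and 0.90 for Mt2.

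Mt3, the brain metallothionein also known as growth inhibitory factor, differed from its neighbours. Its ratio of highest to lowest zone was 1.65 at P21, 1.85 in adult and 2.38 in aged sections, and the matrix was highest in 5 of 6 sections. In the CTX, Mt3 stood at 1318 and 1293 CPM at P21, 1277 and 1305 in adult and 889 and 848 in aged sections. In the FT it stood at 1257 and 1151, then 1464 and 1452, then 1474 and 1545 CPM. Aged sections were thus lowest in the CTX and highest in the FT.

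The log2 fold change of Mt3 in aged vs. adult was −0.59 ± 0.08 (SE) in the CTX, the region called, and −0.33 to −0.54 in the HP, TH, HY and STR, where fold changes stayed under 1.5. The CTX fold of 1.501 was just over that limit. Within the CTX, deep layers were called lower (−0.64 ± 0.08), and layer 4 (−0.49 ± 0.09) and upper layers (−0.36 ± 0.09) were not. Over whole sections the value was −0.62 ± 0.06 and was called, although none of the 6 regions reached it. Whole sections held 1511 and 1528 CPM in adult and 1087 and 1043 CPM in aged sections. These levels are before TMM factors, which were 0.98 and 0.97 for adult and 1.03 and 1.07 for aged whole sections. The part of these factors in the call was not tested. In the FT the value was 0.06 ± 0.08. The CTX call was lost without adult section 2 or aged section 2, at −0.58 and −0.52. Plain CPM, thinned depth, only the ages compared and the unnamed cluster joined to the CTX lost it too, at −0.56 to −0.58. No region was called for Mt3 at P21, and values ran from −0.20 to 0.02. Across spots, r between Mt3 and Mt1 was 0.28 to 0.51 in the 6 sections. Itm2b, Laptm4a and Dars were most like Mt3, with r of 0.85, 0.81 and 0.80.

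**Figure D5:**
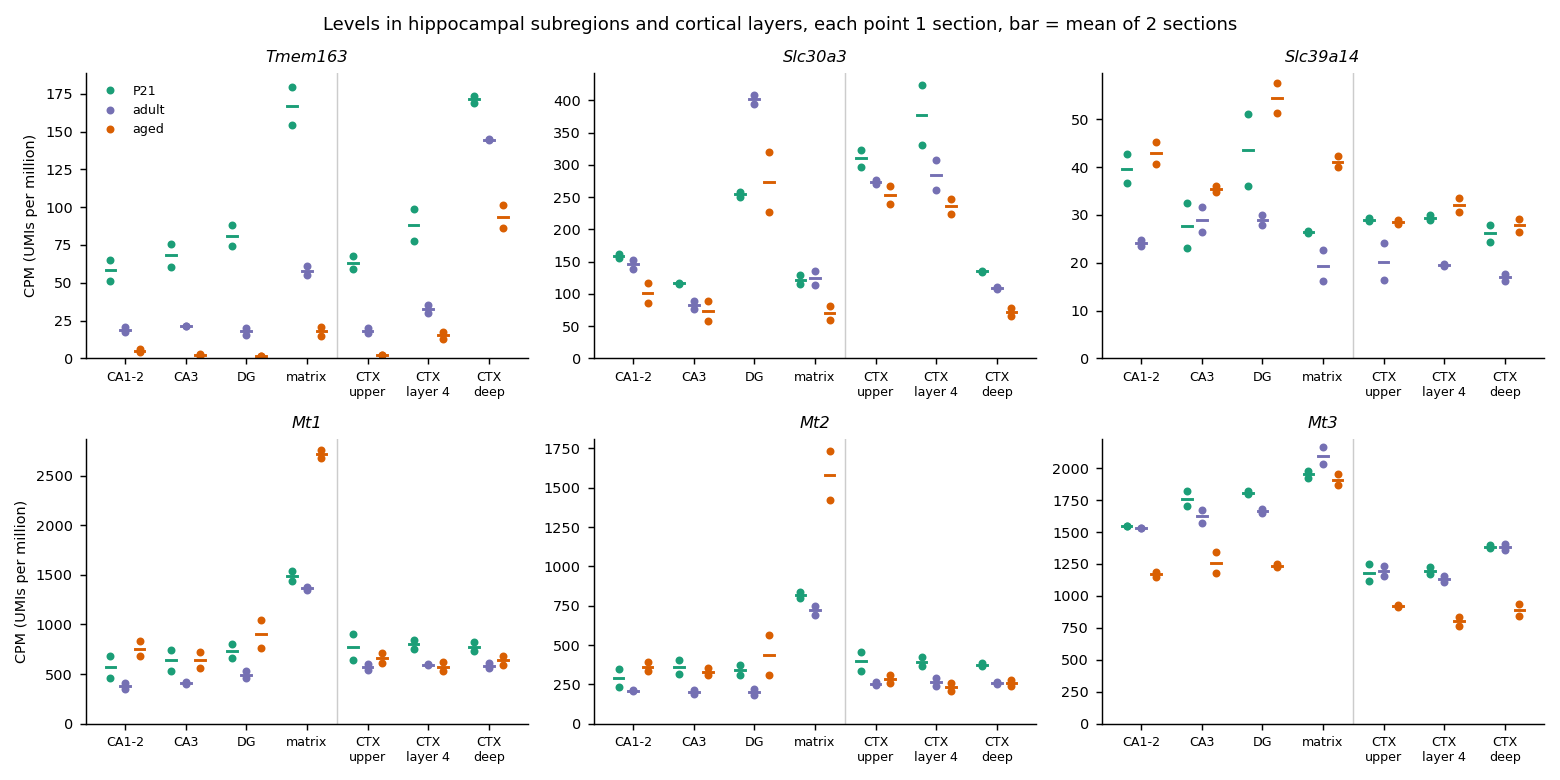
Levels (CPM, y axes from 0) of 6 of the genes in 4 hippocampal subregions and 3 cortical layer groups at P21, adult and aged, with 1 point per section and a bar at the mean of 2 sections. Aged Mt1 and Mt2 stand highest in the matrix, adult Slc30a3 in the DG at 409 and 394 CPM, and Tmem163 in deep cortical layers and the matrix.

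A list of 22 others held the remaining Slc30a and Slc39a genes, Mt4, Mtf1, Gpr39 and Trpm7, and 14 were tested in the 6 regions. In P21 vs. adult, 0 of 84 gene-region pairs were called by edgeR, beside 6.1% of all pairs, and 0 by DESeq2. An unadjusted p under 0.05 in edgeR was seen there for 7 pairs. In aged vs. adult, 7 pairs were called, 2 higher and 5 lower, or 8.33% beside 14.8% of all pairs. Genes named here and among those for other metals were picked for being called. Their adjusted p-values are a description and not a test. Slc39a9, a Golgi ZIP transporter, fell in aged vs. adult in the STR (−0.70 ± 0.12, SE, edgeR adjusted p = 0.000272), TH (−0.65 ± 0.12, edgeR adjusted p = 0.00189) and FT (−0.64 ± 0.11, edgeR adjusted p = 7.35e-05). Slc39a3, a plasma membrane importer, fell in the FT (−0.76 ± 0.12, edgeR adjusted p = 5.46e-05). Slc39a1 (ZIP1) rose in the FT from 5.14 and 6.05 to 11.8 and 15.6 CPM (1.31 ± 0.23, edgeR adjusted p = 0.000118). In the FT lay 4 of the 7 calls, and there the changes of all genes were largest as well.

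Genes for other metals were compared as well. Of 14 copper and iron genes, 12 were tested, and 12 of 72 pairs were called in P21 vs. adult and 14 of 72 in aged vs. adult, 6 higher and 8 lower. These are 16.7% beside 6.1% of all pairs, and 19.4% beside 14.8%. Fth1, the ferritin heavy chain that stores iron, stood in the FT at 4360 and 4756 CPM at P21, 11156 and 12014 in adult and 24874 and 22337 in aged sections, and the groups did not overlap. It was lower in P21 vs. adult in 5 of 6 regions (in the FT −1.27 ± 0.11, SE, edgeR adjusted p = 1.77e-07) and higher in aged vs. adult in the FT (1.04 ± 0.11, edgeR adjusted p = 6.66e-07). Slc31a1, the copper importer, was higher at P21 in the HP (1.25 ± 0.15, edgeR adjusted p = 0.000218), FT (0.79 ± 0.14) and CTX (0.60 ± 0.13). Slc40a1, the iron exporter ferroportin, was higher at P21 in the HP, TH and CTX (0.84, 0.81 and 0.69). Tfrc, the transferrin receptor, fell in aged vs. adult in the STR (−0.88 ± 0.12, edgeR adjusted p = 2.83e-05), HP and HY, and Slc40a1 fell in the HY and TH (−0.76 and −0.65). Atp7a, a copper-transporting ATPase, rose in aged FT (1.23 ± 0.14, edgeR adjusted p = 1.30e-06) from 16.7 and 18.3 to 43.5 and 38.1 CPM. It was called higher in the aged STR as well (0.65 ± 0.24).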

How the data were processed

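Per the file headers, the authors counted UMIs per gene and spot with Space Ranger 2.0.0 (P21, adult) or 3.1.1 (aged), whereas the submitters' processing notes name Space Ranger 2.1.0, Seurat 5.1.0 and mm10. The deposited counts were raw and replicates were not pooled. Moran's I, a score of spatial autocorrelation per gene and section, was used as deposited by the authors. Spots with at least 250 genes and 500 UMIs were kept (20336 spots, total UMIs of 42422997 to 106783660 per section). Clusters were found with leidenalg 0.10.2 on 10 principal components of 3000 variable genes at a resolution of 0.3, with 46 zinc and metal genes left out, and were named where a marker panel scored at least 0.2 with at least 3 panel genes raised. A condition on naming and the joining of the unnamed cluster with CTX were chosen after seeing the data.

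UMIs were summed per region and section. Age was tested in edgeR 4.0.16 (quasi-likelihood, TMM factors, all 3 ages in the fit, Benjamini-Hochberg over all genes of a region), on genes passing filterByExpr and detected in over 10% of a region's spots at either age and in at least 10% of all spots. Calls needed an adjusted p under 0.05 and a fold over 1.5. With 2 sections per age, p-values rest on spread shared across genes. The fits were also run on counts simulated from their own estimates of spread, without slide generation, lateral spread or changes of cell make-up. No result here rests on that run. Alternatives were DESeq2 1.42.0, plain CPM, filterByExpr alone, a replicate block, only the ages compared, a resolution of 0.5, core spots (all neighbours in the same region), thinning to equal depth and leaving out each section.

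The 10 genes and all lists were chosen with earlier results of these data known, and the study's own lists, made on these sections, hold some of them. Named genes were all members, per list and comparison the 3 others with the largest mean log2 fold change among those called, and per member the 3 genes most like it over 36 sums, some of which are not reported here.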

Additional observations from a re-analysis of the deposited data

How the results depend on the processing

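Of 616 recomputed values of the 53 called member values, 539 (87.5%) kept direction and call, 77 lost the call and 0 changed sign, and 29 called values kept the call under every alternative run. Leaving out 1 section gave 4 to 7 member calls in P21 vs. adult and 14 to 24 in aged vs. adult. In the hippocampal subregions it gave 2 to 10, with the lowest count without P21 section 1, and 13 to 17. Members with an interaction, a description here, numbered 1 in P21 vs. adult, whichever section was left out, and 7 to 9 in aged vs. adult, and other zinc genes called were 0 and 6 to 10. With core spots, 1 other zinc gene-region pair was called in P21 vs. adult (Slc39a11 in the FT), in place of 0, and the cause was not tested. Replicate numbers did not pair the sections (correlations of same-numbered deviations from −0.39 to 0.08). With the replicate block, member calls in P21 vs. adult were 5, without Slc39a14 and Tmem163 in the HY, and 9 in the subregions, and in aged vs. adult 21 and 16, with 0 and 7 other zinc pairs. With DESeq2, member calls were 5 and 6 in P21 vs. adult and 20 and 12 in aged vs. adult. Low counts limit the aged DG, CA1-2, CA3 and upper-layer values of Tmem163, and counts of 92 and 32 UMIs limit those of Slc30a3 in the aged TH.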
